A study of Mus musculus with 21 samples.

Results

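Glucocorticoid signalling was described in mouse hippocampus through 10 genes: 8 that respond to the hormone in brain, Fkbp5, Tsc22d3, Nfkbia, Sgk1, Errfi1, Pdk4, Zbtb16 and Per1, and the 2 receptors that bind it, Nr3c1 and Nr3c2. They were taken by symbol from a table of 24498 genes. All 10 were in the table, and all 10 passed the filter on low counts that left 14578 genes for testing. The data are RNA-seq gene counts from hippocampus of male mice of 8 weeks, dosed with ethanol in the peritoneum (2 g per kg, 20% in saline). One arm carried an AAV2/9 vector in which the U6 promoter drives a short hairpin RNA against Acss2, an enzyme that makes acetyl-CoA from acetate, and the CMV promoter drives EGFP; the other arm was a control whose vector is not described in the sources used here. The sample protocol places the vector in the dorsal hippocampus by stereotaxic injection, while the wording of the series design can also be read as systemic delivery. Neither gives the strain, or the time between ethanol and dissection. No saline-injected group is among the libraries.

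Libraries with over 1000000 gene reads after ethanol comprised 4 of dorsal knockdown, 3 of dorsal control, 3 of ventral knockdown and 4 of ventral control hippocampus, and 1 knockdown library of total hippocampus that entered no test. These 15 held 2819837 to 13240179 gene reads. Dorsal knockdown 5 and ventral knockdown 1, with 5021 and 8744 gene reads, and 4 untreated libraries, with 4279 to 221847, were not compared. Nothing in the labels ties replicates to separate animals; p-values therefore cover the spread between libraries, which may be technical. Levels are in CPM, counts scaled to a library of 1000000 after TMM normalisation. Pan-neuronal markers summed to 5218 to 10295 CPM in the 15 libraries, and 1 of 8 blood markers reached the level needed for testing. Acss2 itself stood at 44.2, 40.8, 18.0 and 19.2 CPM in dorsal knockdown, against 52.9, 58.6 and 52.7 CPM in dorsal control (log2 fold change -0.84, SE 0.32, edgeR adjusted p = 0.964). In ventral hippocampus Acss2 was 28.8, 63.5 and 36.6 CPM in knockdown, against 50.2, 54.1, 47.4 and 48.0 CPM in control (log2 fold change -0.21, SE 0.32, edgeR adjusted p = 1). All 4 dorsal knockdown libraries lay below all 3 dorsal controls. Exons of Acss2 overlap those of Ggt7 (mean 110 CPM) and Gss (mean 15.3 CPM) on the opposite strand. Whether counting was by strand is not stated, so reads of these genes may enter the Acss2 count. The library labelled ventral knockdown 3, at 63.5 CPM, held the highest Acss2 of all 15 libraries, so its target gene goes against its label. Without it the ventral log2 fold change of Acss2 was -0.60 (SE 0.33, edgeR adjusted p = 0.834). As that library was singled out by its high Acss2, the direction of this shift was fixed in advance and does not show a knockdown. The library labelled total knockdown, at 58.0 CPM, stood above every dorsal knockdown library and within the range of the dorsal controls. No control of total hippocampus is among the libraries, so whether Acss2 was lowered in it cannot be told. Ventral values of the genes below are therefore given with and without the library labelled ventral knockdown 3.

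Glucocorticoids are adrenal steroid hormones that enter cells and bind receptors held in the cytoplasm by heat shock protein chaperones. The bound receptor moves to the nucleus, where it binds glucocorticoid response elements and raises or lowers transcription of its targets. The hippocampus carries both the mineralocorticoid receptor, which has the higher affinity for corticosterone and is largely occupied at rest, and the glucocorticoid receptor, which is occupied mainly during stress and at the daily hormone peak.

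Start-site sequences are shown for Sgk1, Nfkbia, Errfi1 and Per1, the targets whose levels or response elements are described most closely here. Each spans 250 bases before to 50 bases after a RefSeq start site (build GRCm38.p6), written 5′ to 3′ on the gene's strand, with motif matches in capitals. Of the 10 genes, 8 had an entry that could be printed. Motifs were searched on both strands. They were the palindromic glucocorticoid response element, its monomer TGTTCT, the cyclic AMP response element TGACGTCA and its core TGACG, the E-box CACGTG, the NF-kappaB site and the TATA box TATAAA. Monomer matches can overlap the palindrome, and TGACG lies within TGACGTCA.
Sgk1: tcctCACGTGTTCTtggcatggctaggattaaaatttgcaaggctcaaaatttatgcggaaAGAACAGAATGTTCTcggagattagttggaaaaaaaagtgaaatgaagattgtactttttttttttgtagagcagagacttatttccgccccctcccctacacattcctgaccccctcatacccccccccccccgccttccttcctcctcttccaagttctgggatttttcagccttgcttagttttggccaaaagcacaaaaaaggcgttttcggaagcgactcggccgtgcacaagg
Nfkbia: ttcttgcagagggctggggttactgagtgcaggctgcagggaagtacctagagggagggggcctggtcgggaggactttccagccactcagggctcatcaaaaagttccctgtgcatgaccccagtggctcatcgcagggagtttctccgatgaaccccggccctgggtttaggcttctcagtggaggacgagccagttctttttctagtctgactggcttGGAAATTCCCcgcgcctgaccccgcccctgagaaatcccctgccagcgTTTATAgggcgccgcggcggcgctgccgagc
Errfi1: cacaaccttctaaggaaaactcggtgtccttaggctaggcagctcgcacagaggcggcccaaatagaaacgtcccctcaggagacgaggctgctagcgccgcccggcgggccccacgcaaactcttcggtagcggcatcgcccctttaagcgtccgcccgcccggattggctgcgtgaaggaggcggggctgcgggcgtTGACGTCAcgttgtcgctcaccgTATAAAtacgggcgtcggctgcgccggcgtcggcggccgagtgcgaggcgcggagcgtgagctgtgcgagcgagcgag
Per1: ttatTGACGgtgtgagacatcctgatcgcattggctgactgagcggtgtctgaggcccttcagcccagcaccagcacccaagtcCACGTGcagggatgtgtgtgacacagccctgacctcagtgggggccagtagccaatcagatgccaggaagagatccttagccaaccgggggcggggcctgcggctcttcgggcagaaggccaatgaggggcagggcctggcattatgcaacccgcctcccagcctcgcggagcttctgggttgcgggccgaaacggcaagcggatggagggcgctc

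The Sgk1 window (chr10:21993640-21993939, plus strand) belongs to the fifth of 6 listed start sites. It was the only window searched, over the 8 genes with an entry, that held the palindromic element. The element read GAACAGAATGTTC from position -188 relative to the start site, with a monomer match overlapping each end and reaching 1 base past it. Such an element was found in 155 of 32544 start-site windows (0.476%). This is a share per window, whereas the Sgk1 window shown was picked from 6 as the 1 with the element. Another TGTTCT overlapped an E-box near the distal end, and TGTTCT occurred in 18.9% of windows. In Nfkbia (chr12:55492598-55492897, minus strand) the NF-kappaB site lay on the opposite strand at position -29, a motif held by 1.61% of windows. The Errfi1 window shown (chr4:150854820-150855119, plus strand) held the full cyclic AMP response element at position -51, found in 1.80% of windows. It also held a TATA box at position -28, found in 13.6%. The other Errfi1 window, at start site 1, held none of the motifs. In the Per1 window shown (chr11:69098699-69098998, plus strand) the E-box lay at position -166 and the TGACG core at position -246. These letters occurred in 7.17% and 20.9% of windows. The other Per1 window, at start site 2, held the TGACG core at position -132 and no E-box. A match describes letters in a window and does not show that a factor binds there.

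Per kilobase of exon, mean levels of the 8 targets and 2 receptors ran from 3.19 to 21.4 CPM. Means over the 15 libraries were 21.4 ± 7.87 CPM per kb for Per1, 19.6 ± 9.83 for Sgk1, 18.9 ± 8.60 for Tsc22d3 and 18.5 ± 5.58 for Nfkbia (SD, n = 15 libraries). The SDs of these 4 exceed the distance between their means, so their order is not resolved. Zbtb16 at 14.8 ± 4.60, Nr3c2 at 14.4 ± 6.14, Errfi1 at 10.9 ± 4.98 and Nr3c1 at 10.3 ± 2.51 CPM per kb followed. Again each neighbour lay within 1 SD of the next. Fkbp5, at 7.27 ± 2.46 CPM per kb, and Pdk4, at 3.19 ± 1.44, each lay below the gene before it by more than the SD of either. Errors are SDs over libraries of all 5 groups, and exon lengths are the union of GENCODE M21 exons.

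None of the 10 genes changed between arms or regions at an edgeR Benjamini-Hochberg adjusted p under 0.05. For dorsal knockdown against dorsal control, 0 of the 10 passed, against 0 of 14578 genes tested (0%); 667 genes (4.58%) and 1 of the 10 had an unadjusted p under 0.05, and DESeq2 called 11 genes, none of the 10. For ventral knockdown against ventral control the edgeR counts were again 0 of 10 and 0 of 14578 (0%), with 593 genes (4.07%) and 0 of the 10 at an unadjusted p under 0.05 and 35 called by DESeq2. For knockdown against control as the mean of both regions they were 0 of 10 and 0 of 14578 (0%), with 577 genes (3.96%) and 1 of the 10 at an unadjusted p under 0.05 and 4 called by DESeq2. The intervals below give the sizes of difference that remain possible; a missed threshold does not show that groups were alike. In bulk tissue, fewer cells of a type and less RNA per cell cannot be told apart.

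For dorsal against ventral hippocampus edgeR called 0 of 10 and 0 of 14578 (0%) in each arm and in the mean of both arms. At an unadjusted p under 0.05 the counts were 317 genes (2.17%) within knockdown, 813 (5.58%) within control and 388 (2.66%) for the mean of both arms, with 0 of the 10 in each. DESeq2 called 0, 13 and 0 genes in those 3 comparisons. For the interaction, the dorsal minus the ventral knockdown effect, edgeR called 0 of 10 and 0 of 14578 (0%), 672 genes (4.61%) and 0 of the 10 had an unadjusted p under 0.05, and DESeq2 called 9. Across the 1230 fits of these genes under every setting tried, the lowest adjusted p was 0.405.

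**Figure D1:**
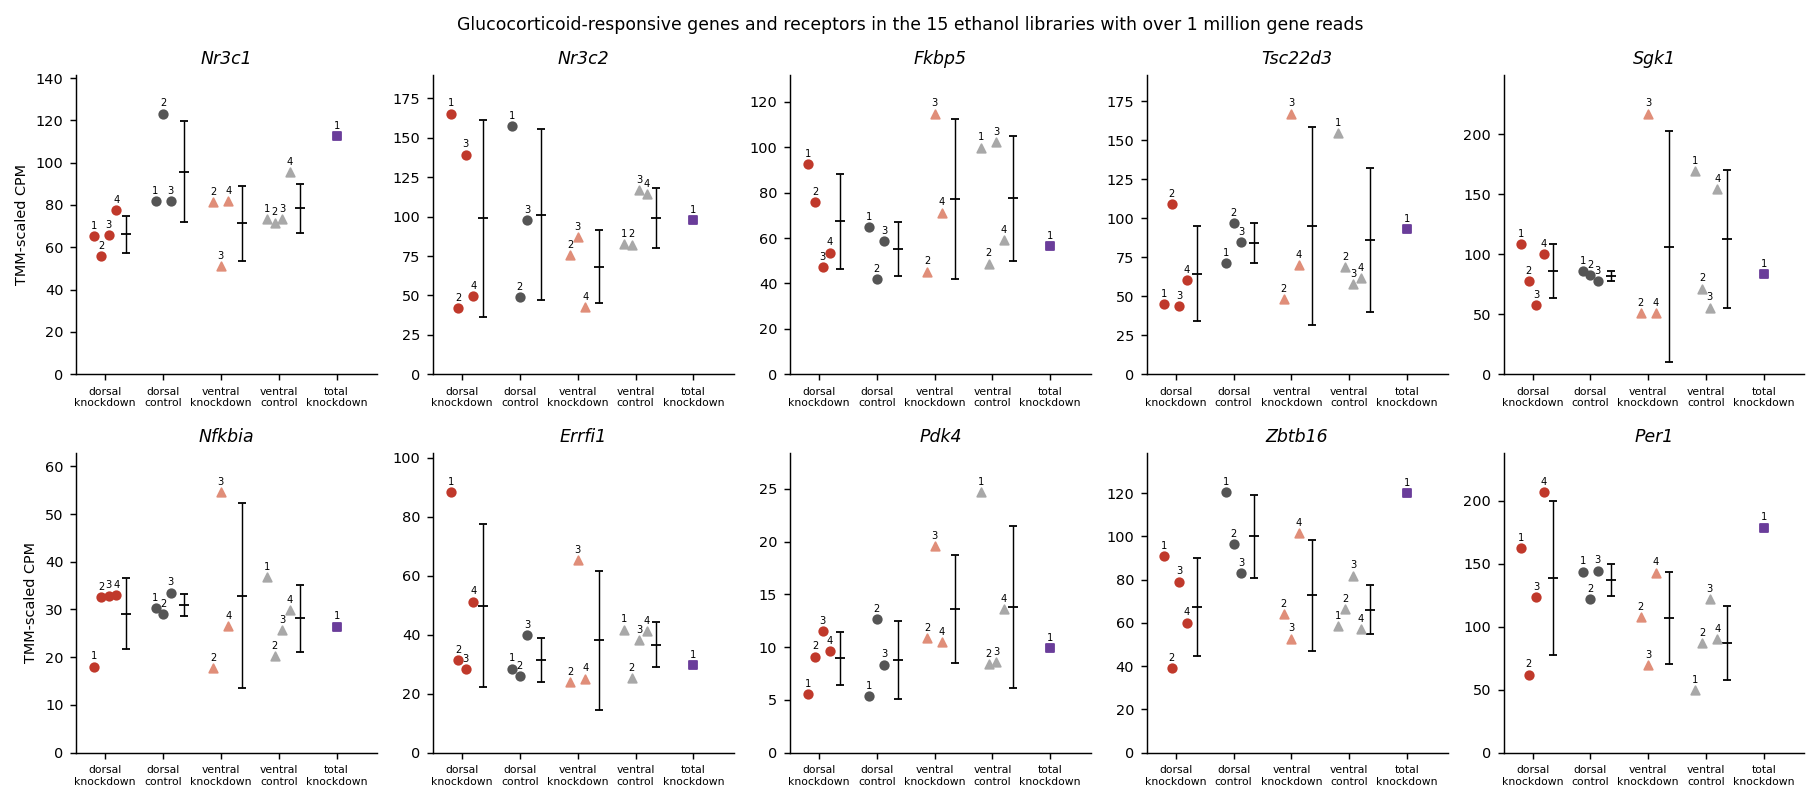
Level of each gene (TMM-scaled CPM, linear axis from 0) in the 15 ethanol libraries, by group; numbers beside points are replicate numbers, and black marks are the group mean ± SD. The arms overlap for every gene in both regions except Nr3c1 in dorsal hippocampus, with 55.8 to 77.5 CPM in knockdown and 81.8 to 123 CPM in control.

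Nr3c1, on chromosome 18, encodes the glucocorticoid receptor. In dorsal knockdown libraries 1 to 4 it stood at 65.2, 55.8, 65.8 and 77.5 CPM, against 81.8, 123 and 82.0 CPM in dorsal control. Each dorsal knockdown library lay below each dorsal control, a lack of overlap in that direction shown by 3.25% of the genes tested. The means were 66.1 ± 8.89 CPM in knockdown (SD, n = 4) and 95.7 ± 23.8 CPM in control (SD, n = 3). The log2 fold change was -0.54 (SE 0.22, 95% interval -1.01 to -0.06), with an edgeR p of 0.0286 and an adjusted p of 0.997. Without dorsal control 2, the highest library, it was -0.31. Nr3c1 in ventral hippocampus was 81.2, 50.9 and 81.8 CPM in knockdown, against 73.3, 71.7, 73.2 and 95.5 CPM in control. These ranges overlap, as did those of all 10 genes in ventral hippocampus (2.68% of tested genes had none in either direction), with a log2 fold change of -0.14 (SE 0.22, 95% interval -0.61 to 0.34, edgeR adjusted p = 1). Without the library labelled ventral knockdown 3 it was 0.06. The dorsal and ventral knockdown effects differed by -0.40 on the log2 scale (SE 0.31, edgeR adjusted p = 0.998), so a difference between regions was not shown. The library labelled total knockdown held 113 CPM.

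Markers of other cells and states also leaned in 1 direction by the fit in the same dorsal libraries. Over all tested genes 53.3% were higher in dorsal knockdown. The 12 interferon-stimulated markers summed to 134 to 1549 CPM in dorsal knockdown and 105 to 148 CPM in dorsal control. These sums overlap, and 12 of 12 were higher in knockdown by the fit. The 11 microglia markers summed to 520.1 to 1441 CPM in dorsal knockdown and 343 to 482 CPM in dorsal control, with 11 of 11 higher. Reactive astrocyte markers summed to 916 to 4817 CPM in dorsal knockdown and 416 to 653 CPM in dorsal control, with 9 of 9 higher. No gene of these lists was called by edgeR, and none of their markers was at 0 in every library of either group. In ventral knockdown 2 interferon-stimulated markers were higher and 10 lower (median log2 fold change -1.09). There 11 of 11 microglia markers and 8 of 9 reactive astrocyte markers were higher. The part of these markers in the Nr3c1 difference was not tested.

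Nr3c2 (chromosome 8, 76899442 to 77245012, plus strand) encodes the mineralocorticoid receptor. It stood at 165, 42.0, 139 and 49.4 CPM in dorsal knockdown, against 157, 48.8 and 97.8 CPM in dorsal control. In ventral hippocampus it was 75.4, 86.8 and 42.7 CPM in knockdown, against 82.6, 82.2, 117 and 114 CPM in control. Dorsal libraries of both arms held high and low values, with dorsal knockdown 1, dorsal control 1 and dorsal knockdown 3 the 3 highest of all 15. The dorsal log2 fold change was -0.02 (SE 0.47, 95% interval -1.03 to 0.99), and the ventral one -0.54 (SE 0.48, 95% interval -1.56 to 0.48), with edgeR adjusted p of 0.999 and 1. The dorsal value was -0.39 without dorsal knockdown 1 and 0.44 without dorsal control 1, and the ventral one -0.74 without the library labelled ventral knockdown 3. Highest over lowest was 3.93-fold for Nr3c2 and 2.42-fold for Nr3c1, against a median of 2.53-fold over 11754 genes averaging 5 CPM or more. Exons of Nr3c2 overlap those of Gm10649 on the opposite strand, which was in the table but below the filter.

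The ratio of the receptors varied widely between libraries of 1 group. Per kilobase, log2 of Nr3c2 over Nr3c1 was 1.59, -0.16, 1.33 and -0.40 in dorsal knockdown, against 1.19, -1.09 and 0.50 in dorsal control. It was 0.14, 1.02 and -0.69 in ventral knockdown, against 0.42, 0.44, 0.92 and 0.51 in ventral control. Dorsal libraries of both arms and ventral knockdown libraries thus held both signs, and all 4 ventral controls were positive. The mean was 0.59 ± 1.02 for dorsal knockdown (SD, n = 4), against 0.20 ± 1.17 for dorsal control (SD, n = 3). For ventral knockdown it was 0.16 ± 0.85 (SD, n = 3), against 0.57 ± 0.24 for ventral control (SD, n = 4). Each difference was smaller than the larger SD of its pair.

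**Figure D2:**
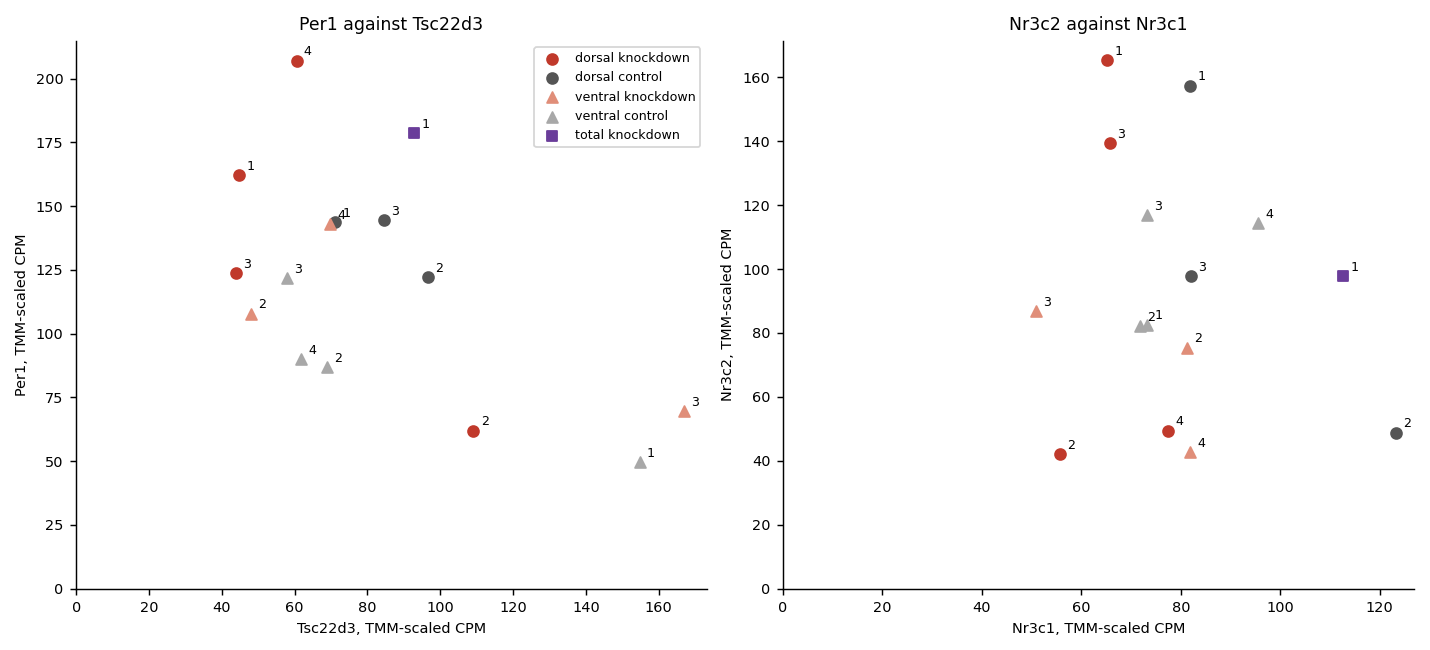
Left, Per1 against Tsc22d3; right, Nr3c2 against Nr3c1, in CPM on linear axes from 0, 1 point per library with its replicate number and with colour and shape for the group. The library labelled ventral knockdown 3, dorsal knockdown 2 and ventral control 1 sit apart at lower right on the left plot, with Tsc22d3 of 109 to 167 CPM and Per1 of 49.4 to 69.6 CPM; on the right plot Nr3c2 spans 42.0 to 165 CPM with no order by group.

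Fkbp5 (chromosome 17, 28399094 to 28517527, minus strand) encodes a co-chaperone that lowers hormone binding by the glucocorticoid receptor and is itself induced by it, a short feedback loop. It stood at 92.6, 75.9, 47.2 and 53.6 CPM in dorsal knockdown, against 64.9, 41.8 and 58.8 CPM in dorsal control. Ventral values were 45.2, 115 and 71.2 CPM in knockdown, against 99.8, 48.8, 102 and 59.1 CPM in control. Both pairs of ranges overlap widely. The log2 fold change was 0.29 in dorsal hippocampus (SE 0.35, 95% interval -0.46 to 1.05) and -0.01 in ventral (SE 0.35, 95% interval -0.75 to 0.73), with edgeR adjusted p of 0.999 and 1. The dorsal value was 0.10 without dorsal knockdown 1. The ventral one was -0.41 without the library labelled ventral knockdown 3 and 0.26 without ventral knockdown 2. Dorsal against ventral control gave -0.50 (SE 0.35, edgeR adjusted p = 0.731).

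Tsc22d3 (chromosome X, 140539528 to 140600659, minus strand) encodes GILZ, a leucine zipper protein that carries part of the anti-inflammatory action of glucocorticoids. Dorsal levels were 44.7, 109, 43.8 and 60.5 CPM in knockdown, against 71.2, 96.7 and 84.5 CPM in control. Ventral levels were 48.1, 167 and 69.8 CPM in knockdown, against 155, 68.9, 57.8 and 61.7 CPM in control. One library in each of 3 groups stood well above the rest of its group, namely the library labelled ventral knockdown 3, ventral control 1 and dorsal knockdown 2. The dorsal log2 fold change was -0.38 (SE 0.45, 95% interval -1.35 to 0.58) and the ventral one 0.15 (SE 0.45, 95% interval -0.81 to 1.11), with edgeR adjusted p of 0.999 and 1. Without those 3 libraries, an alternative chosen after seeing the data, the dorsal value was -0.77 and the ventral one -0.10. Without the library labelled ventral knockdown 3 alone the ventral one was -0.53. Dorsal knockdown 2 and the library labelled ventral knockdown 3 held the highest Tsc22d3 of their groups. The directions of the dorsal shift and of the last ventral shift were therefore fixed in advance.

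Nfkbia (chromosome 12, 55489410 to 55492647, minus strand) encodes I-kappa-B alpha, which holds NF-kappaB in the cytoplasm and is induced both by glucocorticoids and by NF-kappaB. It was 18.0, 32.6, 32.9 and 33.0 CPM in dorsal knockdown, against 30.2, 29.0 and 33.5 CPM in dorsal control. In ventral hippocampus it was 17.6, 54.7 and 26.4 CPM in knockdown, against 36.8, 20.2, 25.7 and 29.9 CPM in control. Apart from dorsal knockdown 1, dorsal values lay close together whatever the arm. Log2 fold changes were -0.09 in dorsal (SE 0.34, 95% interval -0.81 to 0.64) and 0.22 in ventral hippocampus (SE 0.34, 95% interval -0.50 to 0.94), with edgeR adjusted p of 0.999 and 1. The dorsal one was 0.08 without dorsal knockdown 1, and the ventral one -0.35 without the library labelled ventral knockdown 3. In a list of 15 other NF-kappaB pathway genes, 11 were higher and 4 lower in dorsal knockdown, with a median log2 fold change of 0.16 against 0.03 over all tested genes. The smallest p in that list belonged to Bcl3, a nuclear I-kappa-B family member, at 2.23 (SE 0.81), and then to Ikbkb, an I-kappa-B kinase, at -0.29 (SE 0.17); neither was called by edgeR (adjusted p of 0.955 and 0.999).

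Sgk1 (chromosome 10, 21882184 to 21999903, plus strand) encodes a serine-threonine kinase induced by glucocorticoids and mineralocorticoids that acts on ion channels and transporters. In dorsal hippocampus it stood at 108, 77.9, 57.7 and 99.9 CPM in knockdown, against 85.8, 82.6 and 77.5 CPM in control. In ventral hippocampus it was 50.8, 217 and 51.2 CPM in knockdown, against 169.6, 71.5, 55.5 and 154 CPM in control. The dorsal controls lay close together, while each ventral group held libraries far apart from one another. The log2 fold change was 0.07 in dorsal (SE 0.49, 95% interval -0.98 to 1.12) and -0.08 in ventral hippocampus (SE 0.49, 95% interval -1.13 to 0.97), with edgeR adjusted p of 0.999 and 1. The dorsal value was -0.06 without dorsal knockdown 1. Without the library labelled ventral knockdown 3 the ventral value was -1.13, and without all 3 libraries named above it was -0.89. Among 12 genes for SGK1 substrates and related kinases, 10 were lower and 2 higher in dorsal knockdown (median log2 fold change -0.23 against 0.03 over all genes). Scnn1a, which encodes the alpha subunit of the epithelial sodium channel, was at -1.07 (SE 0.38, edgeR adjusted p = 0.955), and Foxo1, a transcription factor that SGK1 phosphorylates, at -0.49 (SE 0.27, edgeR adjusted p = 0.999).

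Errfi1 (chromosome 4, 150853919 to 150868892, plus strand) encodes MIG6, a feedback inhibitor of the EGF receptor. It was 88.3, 31.4, 28.3 and 51.2 CPM in dorsal knockdown, against 28.5, 25.8 and 39.9 CPM in dorsal control. Ventral levels were 23.9, 65.3 and 25.1 CPM in knockdown, against 41.7, 25.3, 38.0 and 41.2 CPM in control. Dorsal knockdown 1 and 4 were above all 3 dorsal controls, and the other knockdown libraries were within their range. The log2 fold change was 0.66 in dorsal (SE 0.42, 95% interval -0.25 to 1.56) and 0.06 in ventral hippocampus (SE 0.41, 95% interval -0.83 to 0.94), with edgeR adjusted p of 0.999 and 1. Leaving out dorsal knockdown 1 gave 0.23 in dorsal, and leaving out the library labelled ventral knockdown 3 gave -0.57 in ventral hippocampus. Among 11 other genes of EGF receptor feedback 5 were higher and 6 lower in dorsal knockdown (median -0.17), and edgeR called 0; Dusp6, an ERK phosphatase, was at 0.78 (SE 0.37) and Spry1, a Ras pathway inhibitor, at 0.55 (SE 0.28), both at an adjusted p of 0.999. Summed immediate early genes, which neurons raise on stimulation, were at 574 to 5388 CPM in dorsal knockdown and 1077 to 1606 CPM in dorsal control, with 21 of 24 higher in knockdown by the fit and 0 called by edgeR. Ptgs2 was at 2.95 (SE 0.69) and Nptx2 at 2.38 (SE 0.67), both at an edgeR adjusted p of 0.955, and their part in the Errfi1 values was not tested.

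Pdk4 (chromosome 6, 5483351 to 5496309, minus strand) encodes a kinase that inhibits the pyruvate dehydrogenase complex and so spares glucose during fasting. It was the least abundant of the genes, at 5.54, 9.10, 11.5 and 9.62 CPM in dorsal knockdown, against 5.34, 12.7 and 8.33 CPM in dorsal control. Ventral levels were 10.8, 19.6 and 10.5 CPM in knockdown, against 24.7, 8.42, 8.54 and 13.6 CPM in control. The 3 highest libraries were all ventral and the 3 lowest all dorsal. Knockdown against control gave log2 fold changes of -0.01 in dorsal (SE 0.41, 95% interval -0.90 to 0.88) and -0.02 in ventral hippocampus (SE 0.41, 95% interval -0.89 to 0.86), with edgeR adjusted p of 0.999 and 1. The dorsal value was -0.22 without dorsal control 1 and 0.34 without dorsal control 2. The ventral one was -0.36 without the library labelled ventral knockdown 3 and 0.41 without ventral control 1. Dorsal against ventral, as the mean of both arms, gave -0.61 (SE 0.29, 95% interval -1.23 to 0.02), with an edgeR p of 0.0561 and an adjusted p of 0.937. Without ventral control 1 that value was -0.39.

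Zbtb16 (chromosome 9, 48654297 to 48836222, minus strand) encodes PLZF, a zinc finger transcription repressor induced by glucocorticoids in many cell types. It was 90.8, 39.0, 79.1 and 60.1 CPM in dorsal knockdown, against 121, 96.3 and 83.1 CPM in dorsal control. Ventral levels were 64.0, 52.7 and 101 CPM in knockdown, against 58.5, 66.4, 81.8 and 57.1 CPM in control. All 3 dorsal controls lay above all 4 ventral controls, a lack of overlap in that direction shown by 2 of the 10 genes, Zbtb16 and Per1, and by 5.54% of all tested genes, while dorsal and ventral knockdown libraries overlapped for all 10 genes (1.74% of tested genes had no overlap in either direction). The control means were 99.9 ± 19.0 CPM in dorsal (SD, n = 3) and 65.9 ± 11.3 CPM in ventral hippocampus (SD, n = 4), a log2 fold change of 0.60 (SE 0.29, 95% interval -0.02 to 1.21, edgeR adjusted p = 0.731). Dorsal knockdown against dorsal control gave -0.57 (SE 0.29, 95% interval -1.18 to 0.05), ventral gave 0.14 (SE 0.29, 95% interval -0.48 to 0.76) and the interaction -0.71 (SE 0.41, 95% interval -1.58 to 0.16), with edgeR adjusted p of 0.999, 1 and 0.998. The dorsal value was -0.37 without dorsal knockdown 2. Without ventral knockdown 4 the ventral value was -0.17 and the interaction -0.39, and without the library labelled ventral knockdown 3 the ventral value was 0.33.

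Per1 (chromosome 11, 69095217 to 69109960, plus strand) encodes a negative regulator of the circadian clock that is induced both by glucocorticoids and by cyclic AMP signalling. It was 162, 62.0, 124 and 207 CPM in dorsal knockdown, against 144, 122 and 144 CPM in dorsal control. Ventral levels were 108, 69.6 and 143 CPM in knockdown, against 49.4, 86.8, 122 and 89.9 CPM in control. The lowest dorsal control, at 122.1 CPM, was just above the highest ventral control, at 121.6 CPM, and the knockdown groups overlapped. Control means were 137 ± 12.7 CPM in dorsal (SD, n = 3) and 86.9 ± 29.5 CPM in ventral hippocampus (SD, n = 4), a log2 fold change of 0.65 (SE 0.37, 95% interval -0.14 to 1.44, edgeR adjusted p = 0.731); without ventral control 1 it was 0.45. Knockdown against control gave 0.02 in dorsal (SE 0.37, 95% interval -0.77 to 0.81) and 0.29 in ventral hippocampus (SE 0.37, 95% interval -0.49 to 1.08), with edgeR adjusted p of 0.999 and 1. The dorsal value was -0.24 without dorsal knockdown 4 and 0.27 without dorsal knockdown 2. The ventral one was 0.03 without ventral knockdown 4 and 0.53 without the library labelled ventral knockdown 3.

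Markers of hippocampal fields, choroid plexus, neocortex and thalamus varied between the same libraries, with 0 of these genes called by edgeR in any comparison. The 7 CA1 pyramidal markers summed to 742 to 926 CPM in dorsal control and 150 to 428 CPM in ventral control, without overlap. In the knockdown arm they summed to 436 to 750.0 CPM in dorsal and 587 to 1139 CPM in ventral libraries, which overlap. Ventral knockdown lay above ventral control for these markers, with 6 of 7 higher (median log2 fold change 0.96). The 8 neocortex markers summed to 431.9 to 734 CPM in dorsal control and 267 to 431.6 CPM in ventral control, just without overlap. The 7 testable thalamus markers summed to 142 to 165 CPM in dorsal control and 171 to 338 CPM in ventral control, also without overlap. Between regions of the knockdown arm both of these sums overlapped. The 9 choroid plexus markers summed to 45.3 to 408 CPM in dorsal control and 42.9 to 15679 CPM in ventral control, where ventral control 4 held the maximum. In ventral knockdown they summed to 60.3 to 77.6 CPM, inside the ventral control range, and the fit gave 9 of 9 lower than in ventral control (median -5.29, and -1.40 without ventral control 4). The 8 dentate granule markers summed to 136 to 365 CPM in ventral knockdown and 160 to 1083 CPM in ventral control, with 8 of 8 lower by the fit (median -0.88). The part of these markers in the Per1 and Zbtb16 values, or in any ventral difference, was not tested.

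**Figure D3:**
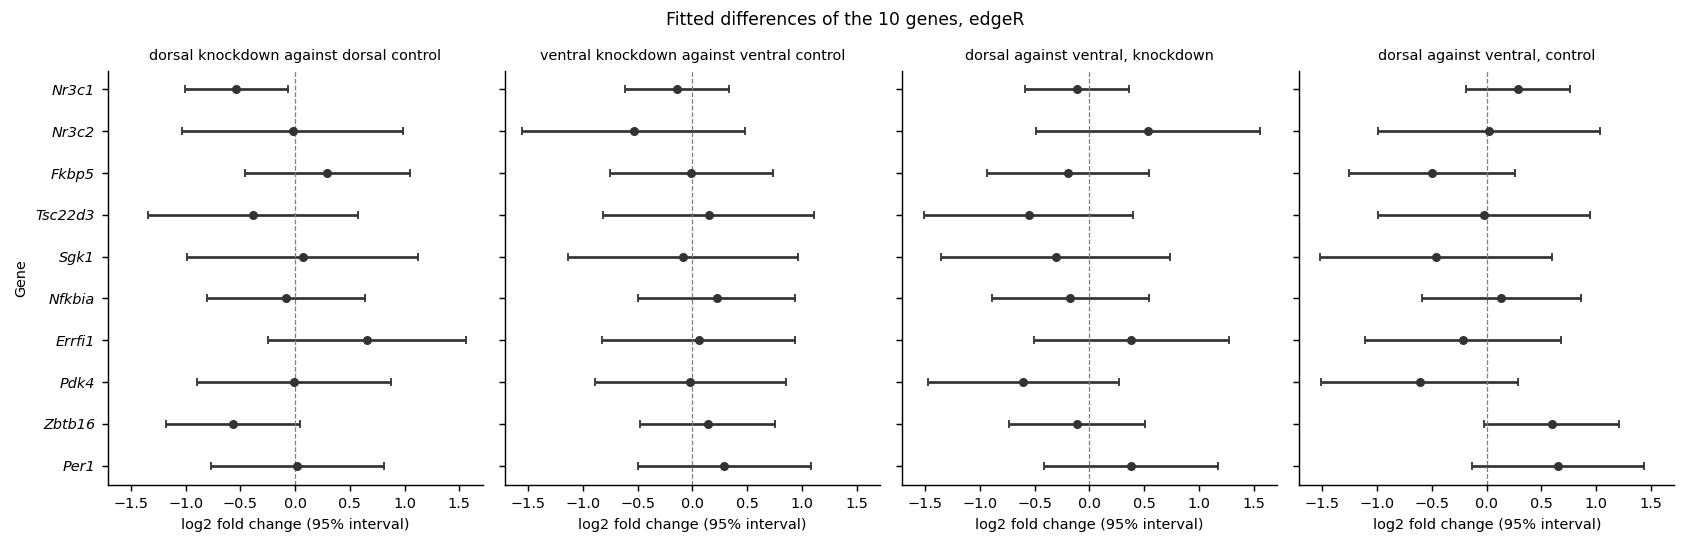
Fitted log2 fold changes (x axis) of the 10 genes with 95% intervals from edgeR, for knockdown against control in each region and dorsal against ventral in each arm. Of the 40 intervals only that of Nr3c1 in dorsal knockdown against dorsal control, -1.01 to -0.06, leaves out 0.

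The 10 genes went in both directions in the comparisons of 2 groups. In dorsal knockdown against control 4 were higher and 6 lower, with a median log2 fold change of -0.02, against 0.03 over all 14578 genes. In ventral hippocampus 5 were higher and 5 lower, with a median of 0.02 against -0.01. Without the library labelled ventral knockdown 3 they were 3 higher and 7 lower, with a median of -0.39 against -0.05. That library ranked 1 of 15 for Sgk1, Tsc22d3, Nfkbia and Fkbp5 and 2 for Pdk4 and Errfi1. The fall of these genes without it was thus fixed in advance and does not show a knockdown effect. For dorsal against ventral libraries of the knockdown arm 3 were higher and 7 lower (median -0.14 against -0.01), and for those of the control arm 5 were higher and 5 lower (median -0.00 against -0.06). For the interaction 5 were higher and 5 lower (median -0.13 against 0.05). The comparisons share libraries and are given side by side only.

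A few libraries stood apart across several of the genes. The library labelled ventral knockdown 3, ventral control 1 and dorsal knockdown 2 held the 3 highest Tsc22d3 levels and the 3 lowest Per1 levels of all 15 libraries. The library labelled ventral knockdown 3 and ventral control 1 also held the highest pair of levels of Sgk1, Nfkbia and Pdk4, and the library labelled ventral knockdown 3 the highest Fkbp5. The library labelled ventral knockdown 3 and dorsal knockdown 2 held the lowest pair of levels of Nr3c1 and of Zbtb16. These 3 libraries come from 3 groups, 1 of them a control. The pattern was seen in these libraries and is given by rank, without a test.

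**Figure D4:**
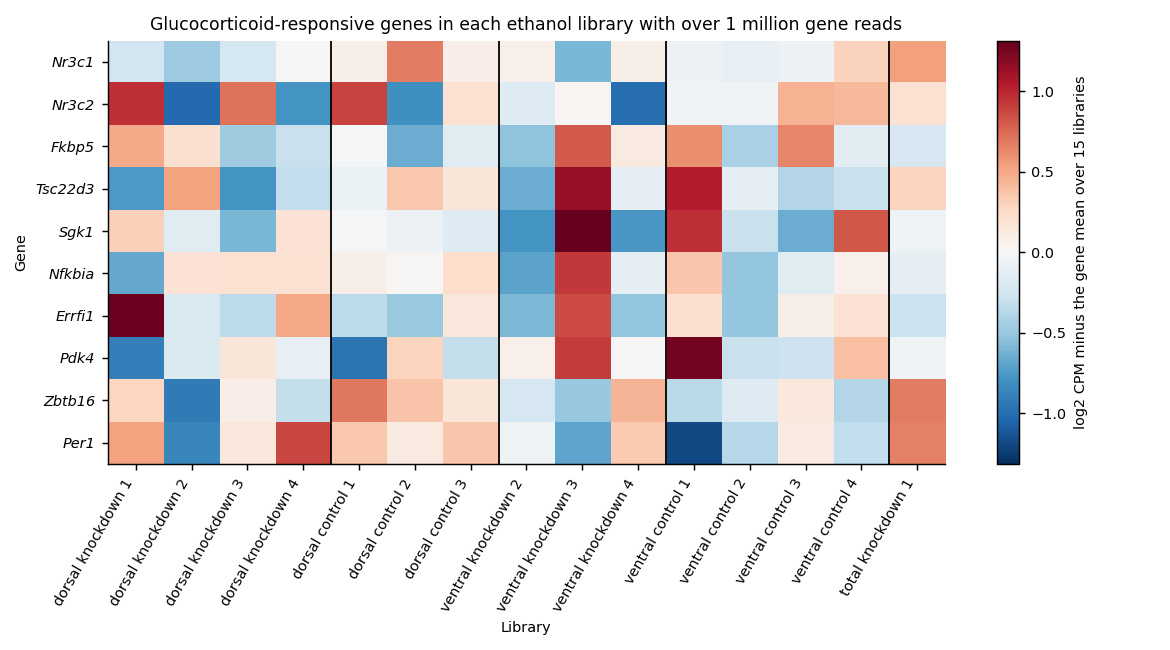
Log2 CPM of each gene (rows) in each of the 15 libraries (columns), minus the gene's mean over them; red is above and blue below the mean, and vertical lines part the groups. The library labelled ventral knockdown 3, dorsal knockdown 2 and ventral control 1 are red for Tsc22d3 and blue for Per1 and Zbtb16.

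Several other measures set the same 3 libraries apart. They were picked after seeing the data, from many lists, as ones in which these libraries were lowest. Their agreement is therefore partly by selection, and it does not single out these lists over others. Rn45s, the ribosomal RNA precursor, took 1.17% of gene reads in dorsal knockdown 2, 1.08% in the library labelled ventral knockdown 3 and 0.625% in ventral control 1, against 3.49% to 20.7% in the 12 others. The 10 brain endothelial markers summed to 192, 154 and 155 CPM in these libraries, in the same order, the 3 lowest of the 15. The 18 circadian genes summed to 1110, 1088 and 1066 CPM and the 24 immediate early genes to 574, 757 and 636 CPM, again the 3 lowest sums in each list. Whether any of these measures has a part in the pattern was not tested.

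Genes most like each member in level were found among 13842 tested genes by Pearson correlation of log2 CPM over the 15 libraries, as a description. Per1 was closest to Mnt (r = 0.968) and Zfp523 (r = 0.961), and Tsc22d3 to Enoph1 (r = 0.941) and Spcs3 (r = 0.905). Zbtb16 was closest to Trak1 (r = 0.915) and Gfod1 (r = 0.888), Nr3c1 to Spred1 (r = 0.901) and Tbc1d2b (r = 0.887), and Nfkbia to Psmd13 (r = 0.900) and Dnajb6 (r = 0.886). None of these 5 was most like another of the 10. Nr3c2 was closest to Gria1 (r = 0.889), which encodes an AMPA receptor subunit, and Iqgap2 (r = 0.882); Pdk4 to Pus10 and Mfsd8 (r = 0.880 and 0.879). Correlations were lower for Fkbp5, with Map2k1 and Ak5 (r = 0.833 and 0.832), Sgk1, with Zfp410 and Tmem248 (r = 0.830 and 0.823), and Errfi1, with Ajap1 and Hs3st4 (r = 0.818 and 0.807). The points share libraries and depth, and the highest of many correlations is high by selection.

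Of 28 further glucocorticoid targets, edgeR called 0 in every comparison. In dorsal knockdown against control 16 were higher and 12 lower (median log2 fold change 0.07 against 0.03 over all genes). Gadd45g, a growth arrest and DNA damage gene, was at 1.54 (SE 0.55, edgeR adjusted p = 0.955). Lcn2, a secreted lipocalin also raised in inflammation and listed here among reactive astrocyte markers too, was at 5.94 (SE 2.12, edgeR adjusted p = 0.955). In ventral knockdown against control 25 were higher and 3 lower (median 0.12 against -0.01). Tiparp, a member of the poly-ADP-ribose polymerase family, was at -0.54 (SE 0.28) and Lcn2 at 2.67 (SE 1.51), both at an edgeR adjusted p of 1. Without the library labelled ventral knockdown 3 the counts turned to 10 higher and 18 lower (median -0.13 against -0.05). Their sums, 2641 to 3362 CPM in dorsal knockdown and 2303 to 3478 CPM in dorsal control, overlapped, as did 2583 to 3866 CPM in ventral knockdown and 2793 to 3368 CPM in ventral control.

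Genes that act on the receptor itself showed 0 calls by edgeR as well. Over all tested genes, 53.3% were higher in dorsal knockdown (median log2 fold change 0.03) and 48.2% in ventral knockdown (median -0.01). Of 11 chaperone complex genes, 8 were lower and 3 higher in dorsal knockdown (median -0.23); Fkbp4, the co-chaperone that opposes Fkbp5, was at -0.63 (SE 0.24, edgeR adjusted p = 0.985) and Stip1, which joins Hsp70 and Hsp90, at -0.36 (SE 0.22, edgeR adjusted p = 0.999). Of 12 receptor coregulators, 11 were lower and 1 higher (median -0.25), with Pias1 at -0.32 (SE 0.18) and Ncor1, a corepressor, at -0.43 (SE 0.27), both at an edgeR adjusted p of 0.999. In ventral knockdown the counts were 7 lower and 4 higher for chaperones (median -0.09) and 6 and 6 for coregulators (median -0.00). Without the library labelled ventral knockdown 3 they were 10 lower and 1 higher for chaperones (median -0.26) and 2 lower and 10 higher for coregulators (median 0.23). Of 8 genes of corticosteroid metabolism and transport 5 could be tested, with 4 lower and 1 higher in dorsal knockdown (median -0.12). Hsd11b1, which regenerates active glucocorticoid, was at -0.58 in dorsal knockdown (SE 0.41, edgeR adjusted p = 0.999). Cyp11a1, the side-chain cleavage enzyme of steroid synthesis, was at -1.50 there (SE 0.52, edgeR adjusted p = 0.955). In ventral knockdown 5 were higher and 0 lower (median 0.16). Without the library labelled ventral knockdown 3 these counts were 4 and 1 (median 0.37).

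Lists around single targets gave likewise 0 calls by edgeR. For their counts too, 53.3% of all tested genes were higher in dorsal knockdown and 48.2% in ventral knockdown. Of 18 other circadian genes, 14 were lower and 4 higher in dorsal knockdown (median -0.21), and 4 lower and 14 higher in ventral knockdown (median 0.19, and 0.35 without the library labelled ventral knockdown 3). In dorsal knockdown Bhlhe40, a clock repressor, was at -0.59 (SE 0.17) and Hlf, a clock-driven transcription factor, at -1.21 (SE 0.35), both at an edgeR adjusted p of 0.955. In ventral knockdown Dbp, a clock output factor, was at 0.73 (SE 0.26, edgeR adjusted p = 0.953) and Ciart, a clock repressor, at 0.85 (SE 0.31, edgeR adjusted p = 1). Of 8 testable stress peptide genes, Avpr1a, a vasopressin receptor, was at 0 to 0.311 CPM in ventral knockdown and 0.722 to 2.56 CPM in ventral control (edgeR adjusted p = 0.634). It was at 0 to 0.134 CPM in dorsal knockdown and 0.210 to 0.445 CPM in dorsal control, levels of a few reads at most. Only ventral control held Avpr1a above 0.445 CPM, so it passed the low-count filter through that group. Its separation of the ventral arms was thus partly set by the filter. Over all tested genes, 2.68% lacked overlap between these arms in either direction. Crhr1, the main receptor of corticotropin-releasing hormone, was at -0.70 in dorsal knockdown (SE 0.35, edgeR adjusted p = 0.999). Of 16 genes of pyruvate dehydrogenase and fatty acid oxidation, 8 were higher and 8 lower in dorsal knockdown (median -0.00), and 4 were higher and 12 lower in ventral knockdown (median -0.09, and -0.16 without the library labelled ventral knockdown 3).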

How the data were processed

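Total RNA of hippocampus was sequenced from a directional kit, per the labels' protocols. What the authors deposited is a single table of raw counts, with 24498 gene rows, 5 rows of alignment summary and 21 sample columns. The submitters' processing notes list STAR 2.5.2a, HTSeq 0.6.1p1 and mm10. Whether HTSeq counted by strand is not stated in these notes, so reads of genes that overlap on opposite strands may be mixed. Columns were mapped to samples by title, 0 were unused, and the summary rows entered neither library sizes nor tests.

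The 14 dorsal and ventral ethanol libraries with over 1000000 gene reads were fitted together, with 1 mean per group, by the robust quasi-likelihood test of edgeR 4.0.16 (R 4.3.3) on genes that passed filterByExpr (minimum count 10), with TMM scaling. A call required a Benjamini-Hochberg adjusted p below 0.05 over the 14578 tested genes. Standard errors come from the F statistic, and correlations used log2 CPM with a prior count of 1. Alternatives were DESeq2 1.42.0, RLE scaling, no filter, the compared groups alone, all 20 dorsal and ventral libraries, a replicate block and leaving out each library. Leaving out 3 libraries together, and list counts without 1 ventral library, were chosen after seeing the data.

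The genes and lists were chosen with earlier results of these data known. By rule all 10 genes and Acss2 are named, with up to 2 genes of smallest p per list and the 2 genes most like each of the 10 in level. A count of 3 reads corresponds to 0.227 to 1.06 CPM in the 15 libraries, which covers counting error only, as no molecular identifiers were used.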

Additional observations from a re-analysis of the deposited data

Results flagged for a closer look

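In groups of 4 libraries, 20 sets of values were examined for a library far from its group, and 3 were found; chance flags about 1 in 20 groups. Tsc22d3 stood at 155 CPM in ventral control 1, far above the other ventral controls, which ranged between 57.8 and 68.9 CPM. Nfkbia stood at 18.0 CPM in dorsal knockdown 1, far below the other dorsal knockdown libraries, which ranged between 32.6 and 33.0 CPM. Nr3c1 stood at 95.5 CPM in ventral control 4, above the other ventral controls, which ranged between 71.7 and 73.3 CPM.

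Reads were also present in untreated libraries, which entered no comparison. With a limit of 3 reads, 10 pairs of gene and library exceeded it. Untreated knockdown 1 held 5 Nr3c2 reads. In untreated control 2 there were 39 reads of Nr3c2, 26 of Zbtb16, 14 of Per1, 13 of Nr3c1, 4 of Fkbp5 and 4 of Sgk1. Untreated control 1 held 8 reads of Zbtb16, 4 of Per1 and 4 of Nr3c2. The share of unique alignments assigned to genes was 0.991% to 1.43% in the untreated libraries, against 57.4% to 81.0% in the 15 ethanol libraries, so an effect of ethanol on these genes was not tested here.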

How the results depend on the processing

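None of the 10 genes was called in any of 1230 fits. RLE scaling, no low-count filter and the groups compared alone left the counts of called genes at 0. With DESeq2 they were 11 for dorsal knockdown, 35 for ventral knockdown, 4 for knockdown as the mean of both regions, 13 for dorsal against ventral control and 9 for the interaction. With all 20 dorsal and ventral libraries, ventral knockdown and the interaction had 1 each. Without the 3 libraries lowest in Rn45s, a choice made after seeing the data, there were 7 for ventral knockdown, 3 for knockdown as the mean of both regions, 12 for dorsal against ventral control, 2 for dorsal against ventral as the mean of both arms and 6 for the interaction. Leaving out 1 library gave 0 to 8 for ventral knockdown, 0 to 2 for the mean of both regions and 0 to 6 for dorsal against ventral control, each maximum without ventral control 1. For the interaction it gave 0 to 2, with 2 without the library labelled ventral knockdown 3 and 1 without ventral control 1. The other comparisons had 0 throughout, and the cause was not tested.

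Neither the labels nor the data were enough to treat same-numbered libraries as pairs: correlations of their deviations had both signs, between -0.22 and 0.367. With the replicate number as a block edgeR called 0 genes in each of the 7 comparisons.

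With 1 library left out, 12 fold changes of the 10 genes moved by more than the spread between replicates and 688 did not. All 12 arose without the library labelled ventral knockdown 3, for Sgk1, Tsc22d3, Nfkbia and Errfi1. Fold changes of dorsal against ventral knockdown without it were 0.75, 0.13, 0.40 and 1.02 for these genes, against -0.31, -0.56, -0.18 and 0.38 with it. Groups of 3 or 4 libraries and the spread within them limit what could be detected.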
